A study of Mus musculus with 6 samples.

Results

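The 10 genes described here belong to the circadian clock: Arntl, Clock and Npas2, Per1, Per2, Per3 and Cry1, Nr1d1, and Dbp and Tef. They were taken by gene name from the arrays, where they had 20 probes among 41174, and 5 of the 10 had a single probe. Each gene is represented by its brightest probe. Of the 10 genes, 9 were measured, out of 20244 genes measured in all.

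Whole lungs came from untreated male mice aged 8 weeks: 3 Nogo-A/B knockout mice (KO 1, KO 11 and KO 12) and 3 wild-type mice (WT 11, WT 12 and WT 13). Nogo-A and Nogo-B are protein products of the reticulon gene Rtn4. The labels give neither the strain, nor how the deletion was made, nor the hour at which a lung was taken. Each lung RNA was labelled with Cy3 and hybridised to an array of 60-base oligonucleotide probes. Signals are given on a log2 scale after division by the array's 75th percentile, so 0 is that percentile and 1 unit is a doubling.

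In the mammalian clock, ARNTL (BMAL1) pairs with CLOCK or NPAS2 and activates genes through E-boxes in the DNA. Their products include the PER and CRY proteins, which block the activators, and NR1D1 (REV-ERB alpha), which represses Arntl. DBP and TEF, themselves products of this loop, act on D-boxes. In peripheral mouse tissues, lung included, Arntl, Clock and Npas2 peak around the start of the light phase, Nr1d1 and Dbp peak during it and the Per genes peak towards its end, while Cry1 peaks late in the night. A lung taken at another hour is therefore known to differ in many of these genes at once, and Arntl and Dbp stand close to opposite phases.

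The DNA elements of this loop were looked for in RefSeq promoter windows (GRCm38.p6) of 250 bases before to 50 bases after a start site, which were held for 9 of the 10 genes in 14 windows. The letters searched on both strands were CACGTG (E-box), CACGTT (an E-box variant), TTATGTAA (D-box) and TAGGTCA (the ROR element that NR1D1 binds); CACGTG reads the same on both strands. Of 32851 windows of this length, 7.15% held CACGTG, 4.68% held CACGTT, 2.61% held TAGGTCA and 0.938% held TTATGTAA. Of these, 3 windows are shown because each carries 1 kind of element of the loop, in capitals, in a gene whose values follow: 2 D-boxes in Per3 (chr4:151044616-151044915, minus strand), an E-box in Per1 (chr11:69098699-69098998, plus strand) and a ROR element in Arntl (chr7:113207261-113207560, plus strand). A match describes the letters and does not show that a factor binds there.
Per3: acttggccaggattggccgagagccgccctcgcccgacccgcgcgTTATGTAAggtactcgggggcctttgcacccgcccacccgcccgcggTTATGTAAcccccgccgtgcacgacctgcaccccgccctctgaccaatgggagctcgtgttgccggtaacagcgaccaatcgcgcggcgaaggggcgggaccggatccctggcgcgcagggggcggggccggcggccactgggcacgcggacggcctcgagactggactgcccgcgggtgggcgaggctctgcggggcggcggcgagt
Per1: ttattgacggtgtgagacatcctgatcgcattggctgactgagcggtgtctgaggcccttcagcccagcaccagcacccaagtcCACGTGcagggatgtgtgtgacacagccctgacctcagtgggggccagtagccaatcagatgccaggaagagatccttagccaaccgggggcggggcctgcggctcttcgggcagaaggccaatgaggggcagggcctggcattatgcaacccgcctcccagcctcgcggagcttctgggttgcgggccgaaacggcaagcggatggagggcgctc
Arntl: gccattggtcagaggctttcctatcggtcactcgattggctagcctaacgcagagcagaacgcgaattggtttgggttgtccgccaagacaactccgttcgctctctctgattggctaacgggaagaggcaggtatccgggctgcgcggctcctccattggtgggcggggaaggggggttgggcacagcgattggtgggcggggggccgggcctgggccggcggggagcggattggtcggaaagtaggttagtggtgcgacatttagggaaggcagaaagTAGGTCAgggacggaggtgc
Cry1 held an E-box and an E-box variant, Nr1d1 an E-box variant, and Tef an E-box in each of its windows. The windows of Dbp, Clock and Npas2 held none of these letters, and neither did the other window of Per1 or of Arntl.

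Each array detected 68.87% to 78.02% of its probes well above background, and no member probe was saturated. Of 4 Rtn4 probes, 1 was detected in 0 of 3 knockout and 3 of 3 wild-type lungs, and 1 in 0 of 3 and 1 of 3. The other 2 were detected in all lungs. They stood at 1.099 and 1.08 in KO 1, -0.71 and -0.50 in KO 11 and -1.79 and -1.96 in KO 12. In wild-type lungs they stood at 1.47 to 2.36, so KO 1 was the knockout lung nearest to wild type. Which part of the gene each probe reads relative to the deletion is not annotated here. All 8 lung markers were detected in all 6 lungs. The arrays were scanned on 2 days, with KO 12, WT 11 and WT 12 on day 2 and KO 1, KO 11 and WT 13 on day 1, and arrays of the same day correlated more closely (r 0.972 to 0.994) than arrays of different days (0.950 to 0.965). All day 2 arrays shared a slide. KO 1 stood apart in skeletal muscle genes: the 4 markers summed to 300 times the 75th percentile signal there, against 0.272 and 4.12 in the other knockout lungs and 0.606 to 5.94 in wild-type lungs. Of the neutrophil markers, 8 of 8 were lower on average in knockout lungs and 3 reached an unadjusted p under 0.05 (limma), with a summed level of 45.2 to 195 in knockout and 86.9 to 301 in wild-type lungs. Within day 2, with a single knockout lung, all were lower, by differences of -3.38 to -1.04. Within day 1, with a single wild-type lung, S100a8 (0.49), S100a9 (0.43) and Cxcr2 (0.28) were higher in the knockout. The others were lower there, at -0.66 to -0.12. Of the adipocyte markers, 3 of 3 measured were lower in the knockout and 2 reached an unadjusted p under 0.05 (limma). Their summed level was 0.574 to 3.93 in knockout and 2.61 to 19.4 in wild-type lungs. Of 6 T and B cell markers, 5 were higher and 1 lower in the knockout, and 1 reached an unadjusted p under 0.05 (limma). Of all genes, 0.948% reached an unadjusted p under 0.05 and none an adjusted one (limma). The part of these markers in the clock gene values was not tested.

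No clock gene passed the test between knockout and wild-type lungs. In whole lung, fewer cells of a type and less RNA per cell cannot be told apart. Of the 9 measured genes, 5 were higher and 4 lower on average in the knockout, and 0 had an adjusted p under 0.05 (limma, Benjamini-Hochberg over all genes), as was so for 0 of 20244 genes (0%). At an unadjusted p under 0.05, 0 of the 9 clock genes stood against 0.948% of all genes. In 0 of the 9 did knockout and wild-type lungs fail to overlap, against 4% of all genes. The median log2 difference, knockout minus wild type, was 0.06 over the 9 clock genes and 0.01 over all genes, and the median size of the difference was 0.12 and 0.15. Every 95% interval for a clock gene lay between -1.11 and 1.17.

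**Figure D1:**
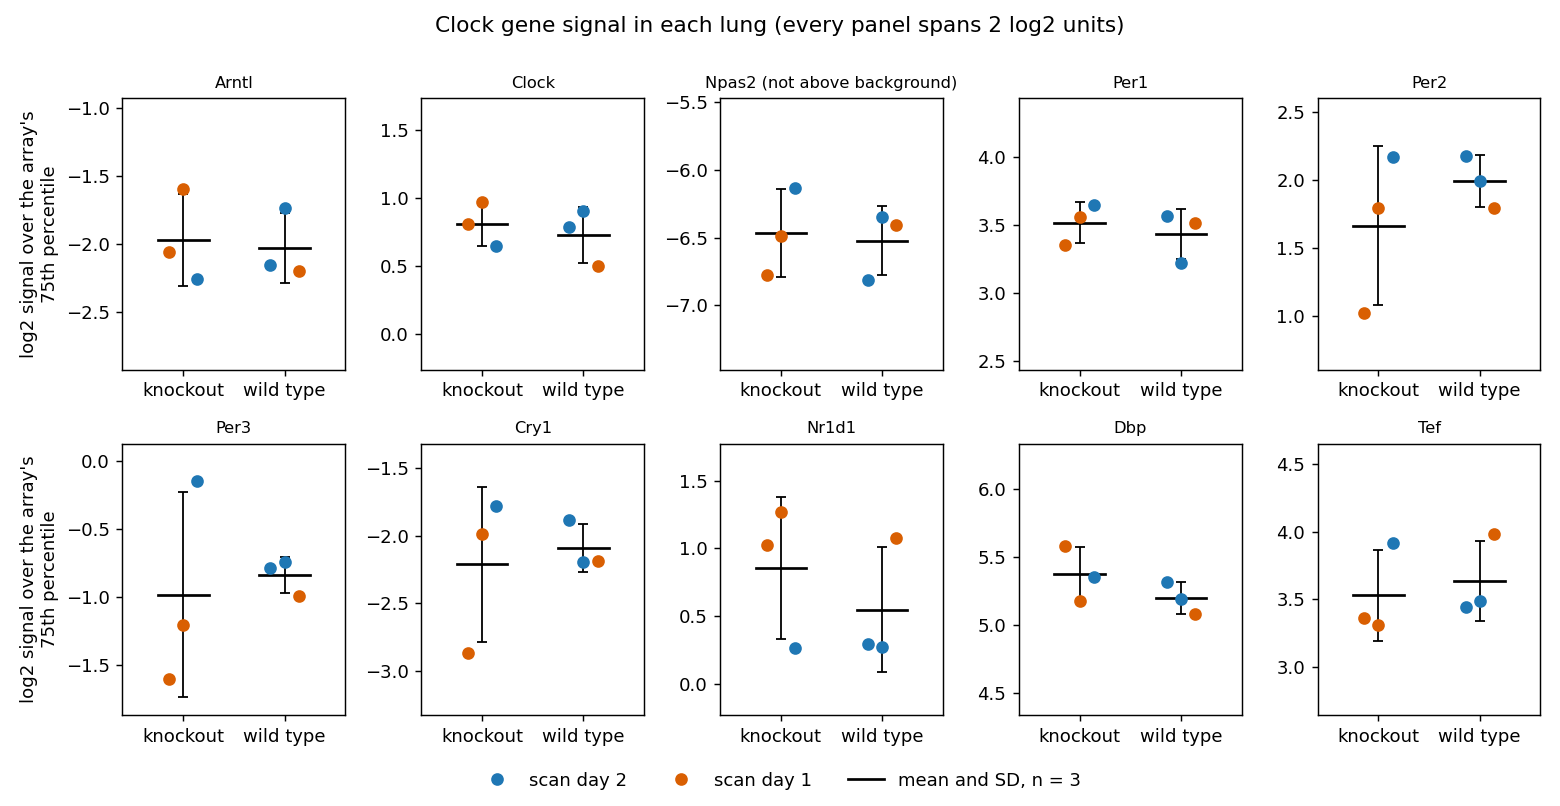
Signal of each clock gene in each lung, as log2 over the 75th percentile of the array, knockout left of wild type, points coloured by scan day, with lines at the mean and bars for the SD (n = 3). Knockout and wild-type lungs overlap in every panel, and in Nr1d1 the 3 day 2 lungs sit together below the 3 day 1 lungs.

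The activators of the loop were close between the groups. Arntl, whose loss stops the clock in mice, had log2 signals of -2.06, -1.60 and -2.26 in KO 1, KO 11 and KO 12, against -2.15, -1.74 and -2.20 in WT 11, WT 12 and WT 13. KO 11 and WT 12 were the high lungs, and the groups overlapped. The difference was 0.06 (SE 0.24, 95% interval -0.54 to 0.65), so the interval allows knockout levels between 0.690 and 1.57 times those of wild type. The Arntl probe (chr7:109229489-109229548 of mm7, plus strand) is shown because the gene anchors one end of the cycle.
Arntl probe: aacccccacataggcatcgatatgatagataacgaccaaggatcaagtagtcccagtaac
Clock, the partner of ARNTL, had 0.81, 0.97 and 0.64 in KO 1, KO 11 and KO 12, against 0.78, 0.91 and 0.50 in WT 11, WT 12 and WT 13. The same 2 lungs were highest as for Arntl. The difference of 0.08 (SE 0.19, 95% interval -0.38 to 0.54) was smaller than its error. Npas2, an alternative partner of ARNTL, did not rise clearly above background in any lung (0 of 6 arrays), with processed signals of 14.5 to 27.6, and no fold is given for it.

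Among the repressors, Per1 was the steadiest. Per1, which light and glucocorticoids also induce, had 3.35, 3.56 and 3.64 in KO 1, KO 11 and KO 12, against 3.57, 3.22 and 3.51 in WT 11, WT 12 and WT 13. Its whole range over the 6 lungs was 1.34-fold, and the difference was 0.08 (SE 0.18, 95% interval -0.35 to 0.52). Per2 had 1.02, 1.79 and 2.17 in KO 1, KO 11 and KO 12, against 2.18, 1.995 and 1.80 in WT 11, WT 12 and WT 13. KO 1 was the lowest lung, and the other 5 lay within the span of 1.79 to 2.18. Per2 had the lowest unadjusted p of the 9 clock genes, 0.344, at a difference of -0.33 (SE 0.32, 95% interval -1.11 to 0.45, limma over all genes).

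Per3 varied most of the 9 measured clock genes, over a 2.75-fold range. It had -1.60, -1.21 and -0.14 in KO 1, KO 11 and KO 12, against -0.79, -0.74 and -0.99 in WT 11, WT 12 and WT 13. Both the lowest and the highest lung were knockouts, and wild-type lungs lay between them. The pooled difference was -0.14 (SE 0.38, 95% interval -1.08 to 0.79). Within day 2 the knockout lung was 0.62 above the wild-type lungs, and within day 1 the difference was -0.41. Within a day one group had a single lung, and whether these differences differ from each other was not tested.

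Cry1, the strongest repressor of the CRY pair in mice, had -2.87, -1.99 and -1.79 in KO 1, KO 11 and KO 12, against -1.89, -2.20 and -2.19 in WT 11, WT 12 and WT 13. KO 1 was again the lowest lung, as for Per2 and Per3. The difference was -0.12 (SE 0.31, 95% interval -0.88 to 0.64). A second Cry1 probe was lower in the knockout by a log2 difference of -0.61 (SE 0.21, unadjusted p = 0.0283), the only one of 19 member probes under 0.05. Its adjusted p in limma over 30508 probes was 0.99995, and 0.00656% of all probes passed, with 0 of the 19 among them. Only KO 1 was low by the first probe, whereas by the second probe KO 1, KO 11 and KO 12 (-4.21, -4.60 and -4.05) all lay below WT 11, WT 12 and WT 13 (-3.62, -3.87 and -3.55). By their brightest probes, 4% of all genes had groups that did not overlap. An unadjusted p under 0.05 in limma was reached by 0.948% of all genes, and that share was not counted over probes.

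Nr1d1, the repressor of Arntl, had 1.03, 1.27 and 0.27 in KO 1, KO 11 and KO 12, against 0.30, 0.27 and 1.08 in WT 11, WT 12 and WT 13. The lungs fell into 2 levels that followed the scan day and not the genotype. The knockout difference was 0.31 (SE 0.35, 95% interval -0.55 to 1.17) and became 0.03 (SE 0.14, 95% interval -0.33 to 0.39) once scan day was a block. It was -0.02 within day 2 and 0.07 within day 1. With that block, 0 of the 9 clock genes had an unadjusted p under 0.05, against 2.1% of all genes.

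The D-box factors lie downstream of the loop. Dbp, among the genes of widest daily swing in mouse tissues, had 5.59, 5.18 and 5.36 in KO 1, KO 11 and KO 12, against 5.32, 5.19 and 5.08 in WT 11, WT 12 and WT 13. Its range over the 6 lungs was 1.42-fold, with KO 1 highest and WT 13 lowest. The difference was 0.18 (SE 0.18, 95% interval -0.26 to 0.61), which allows knockout levels of 0.834 to 1.53 times wild type. Tef had 3.36, 3.31 and 3.91 in KO 1, KO 11 and KO 12, against 3.44, 3.49 and 3.98 in WT 11, WT 12 and WT 13. KO 12 and WT 13 were high and the other 4 lay together, and the difference was -0.11 (SE 0.25, 95% interval -0.72 to 0.51). Other Tef probes differed between the groups by -0.35 (SE 0.41), -0.42 (SE 0.38) and 1.04 (SE 1.19). Of the 5 clock genes with over 1 tested probe, 3 kept the same sign in all probes between knockout and wild type, and Clock and Tef did not. The Tef difference was 0.45 within day 2, with a single knockout lung, and -0.64 within day 1, with a single wild-type lung.

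**Figure D2:**
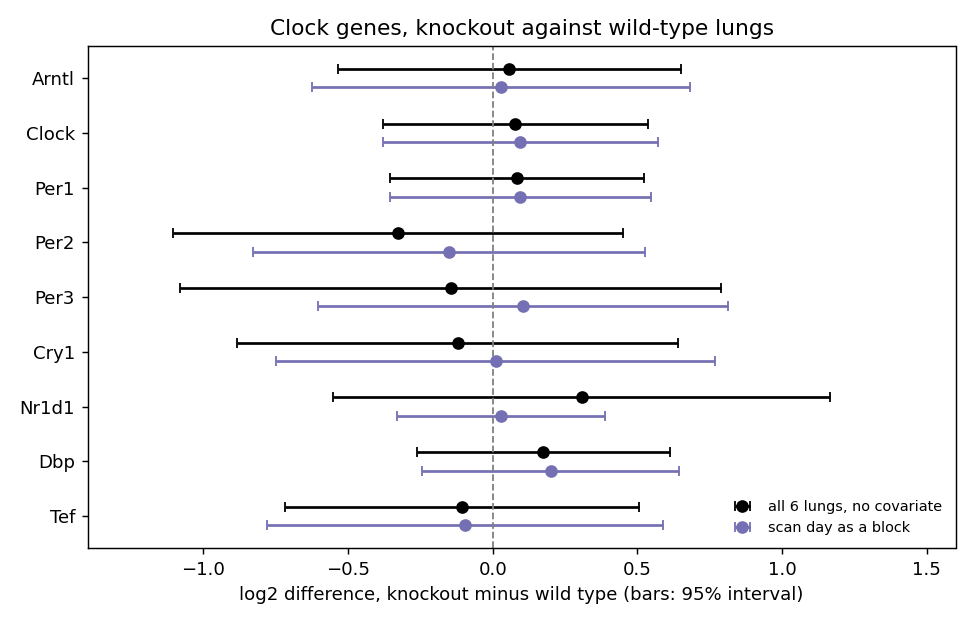
Log2 difference of each measured clock gene, knockout minus wild type, with its 95% interval, from all 6 lungs without a covariate (black) and with scan day as a block (violet). Every interval spans 0, and that of Nr1d1 is narrower with the block (-0.33 to 0.39) than without it (-0.55 to 1.17).

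The spread over the 6 lungs differed between clock genes, whatever the genotype. The SD of Per1, Clock and Dbp stood at percentiles 13.3, 17.2 and 18.5 of all genes, and that of Per2, Nr1d1 and Per3 at percentiles 69.1, 73.3 and 75.1. Of the 9 clock genes, 5 had an SD below the median of all genes (0.31). The median range over the 6 lungs was 0.67 for the clock genes and 0.80 for all genes. Over the 6 lungs Arntl spanned 1.58-fold and Dbp 1.42-fold, against 2.75-fold for Per3, 2.23-fold for Per2, 2.11-fold for Cry1 and 2.004-fold for Nr1d1. The order rested in part on KO 1: without it Per2 spanned 1.31-fold, Cry1 1.33-fold and Dbp 1.21-fold, below Arntl at 1.58-fold, while Per3 spanned 2.09-fold and Nr1d1 2.004-fold.

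A phase index was made for each lung from genes of known phase. It is the mean of Per1, Per2, Per3, Dbp, Tef and Nr1d1 (called evening genes) minus the mean of Arntl, Npas2, Clock and Cry1 (called morning genes), after each gene was set to its mean of the 6 lungs. The names are loose. By the phases given above, Nr1d1 and Dbp peak before the Per genes, and Cry1 peaks late in the night. Genes of the same side can therefore cancel, and an index near 0 does not show equal phase. A higher index means more evening than morning gene signal, in log2 units. The index was 0.05, -0.20 and 0.12 in KO 1, KO 11 and KO 12, against 0.06, -0.22 and 0.19 in WT 11, WT 12 and WT 13. It averaged -0.01 ± 0.17 in knockout and 0.01 ± 0.21 in wild-type lungs (SD, n = 3 each), and the 6 lungs spanned 0.40. That span was 0.81 with quantile normalization, 0.76 with the mean of all probes, 0.65 with the authors' values and 0.62 with normexp. Which side of 0 a lung took also moved: WT 11 was at -0.03 without Npas2 and -0.13 with quantile normalization, and KO 1 was at -0.10 without Cry1. By day, the index averaged -0.01 on day 2 and 0.01 on day 1, but -0.13 and 0.13 with quantile normalization. Without Npas2, whose signal was at background, the groups differed by -0.01, and with Arntl and Npas2 set against Dbp, Per2 and Per3 alone by -0.16. In that last form the index averaged 0.21 on day 2 and -0.21 on day 1, so its direction between days depended on the genes in it.

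**Figure D3:**
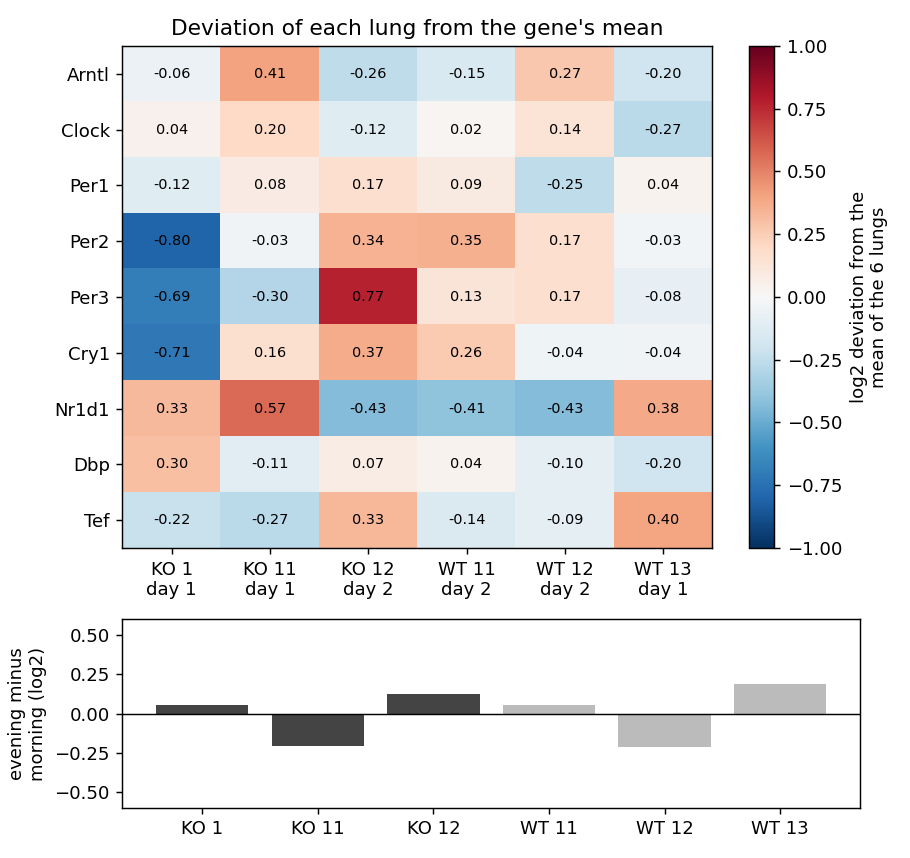
Upper panel: deviation of each lung from the mean of the 6 lungs for each measured clock gene (log2, red above and blue below the mean). Lower panel: evening minus morning index of each lung (log2). KO 11 and WT 12 have the lowest index (-0.20 and -0.22) and the highest Arntl and Clock, which enter the index with a minus sign, and KO 1 has the 3 lowest values of Per2, Per3 and Cry1.

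Phase agreement was also read from pairs of lungs, of which there are 15 over the 6 lungs and 6 within a scan day. Arntl and Clock differed in the same direction in 14 of 15 pairs and in 6 of 6 within a day. Arntl and Tef differed in opposite directions in 12 of 15 pairs and in 5 of 6 within a day. Opposite directions were seen in 11 pairs for Arntl with Per1, 10 with Per2, Per3 and Cry1, 9 with Dbp and 5 with Nr1d1. Among the repressors, Per1 and Cry1 moved the same way in 14 of 15 pairs and in 6 of 6 within a day, and Per2 and Per3 in 13 and in 4. Per3 and Nr1d1 moved in opposite directions in 13 of 15 pairs and in 4 of 6 within a day. In the index Cry1 stands with Arntl and apart from Per1, so its counts with Arntl and with Per1 ran against those sides. The counts of Nr1d1 with Arntl and with Per3 ran against its side as well. The pairs share lungs and each lung's own scaling, so the counts are a description with no test.

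Between scan days, 1 of the 9 clock genes passed the test, Nr1d1. Genotype was in the model, and 2218 of 20244 genes (11%) passed, 450 higher (2.22%) and 1768 lower (8.73%) on day 2, so that 20.3% of the calls were higher on day 2. That split depended on scaling, at 59.5% with median scaling, 42.4% with quantile normalization, 43.3% with normexp and 43.4% with the authors' values. The lungs of the 2 days did not overlap for 3 clock genes (Nr1d1, Per2 and Per3), against 39.5% of all genes, and 2 (Nr1d1 and Per3) had an unadjusted p under 0.05, against 27.7% of all genes.

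Nr1d1 was lower on day 2. It averaged 0.28 ± 0.01 on day 2 and 1.13 ± 0.13 on day 1 (SD, n = 3 each), a difference of -0.84 (SE 0.14, 95% interval -1.20 to -0.48, adjusted p = 0.0246, limma). Relative to the median shift of all genes, which was 0.04 here and 0.34 with median scaling, the difference was -0.88 under either scaling and between -1.01 and -0.95 under the other 3. The adjusted p was 0.0993 without KO 12, 0.114 without WT 11, 0.119 without WT 12, 0.109 without WT 13 and 0.0959 with median scaling, and the difference stayed between -0.88 and -0.78 whichever lung was left out. Cardiac muscle markers moved with it: 4 of 5 (Myh6, Actn2, Tnnt2 and Myl7) were called lower on day 2 and the list summed to 2.82 to 7.93 times the 75th percentile signal on day 2 and 18.2 to 61.6 on day 1, with none of the 5 at background on any array. Their part in the Nr1d1 difference was not tested, nor was that of the slide that all day 2 arrays shared.

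All 3 Nr1d1 probes were lower on day 2, at -0.84 (adjusted p = 0.0186), -0.66 (0.111) and -0.46 (0.290, limma over 30508 probes, of which 16% passed). The 2 that target the transcript listed for the gene are shown because they read separate stretches of it, at chr11:98878251-98878753 and chr11:98881057-98881116 of mm7, both on the minus strand. The first covers a longer genomic interval than its 60 bases.
Nr1d1 brightest probe: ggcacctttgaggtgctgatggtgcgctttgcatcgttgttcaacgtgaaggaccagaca
Nr1d1 second probe: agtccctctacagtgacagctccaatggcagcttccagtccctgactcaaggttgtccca
The day difference was -0.84 by the first of these sequences and -0.66 by the second.

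Per3 and Per2 ran the other way without passing the test. Per3 averaged -0.56 ± 0.36 on day 2 and -1.27 ± 0.31 on day 1 (SD, n = 3 each), a difference of 0.75 (SE 0.28, unadjusted p = 0.0426, adjusted p = 0.165, limma). With median scaling it was 1.05 with an adjusted p of 0.0441, past the threshold, and relative to the median of all genes 0.70 under either scaling. Per2 averaged 2.12 ± 0.10 on day 2 and 1.54 ± 0.45 on day 1, a difference of 0.53 (SE 0.27, adjusted p = 0.278). A second Per2 probe differed by -0.56 (adjusted p = 0.288), so its probes disagreed in direction. The other 6 measured clock genes differed between days by -0.09 to 0.39, with unadjusted p of 0.241 or more.

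Probes of one gene did not always agree between days. Of the 5 clock genes with over 1 tested probe, 2 (Cry1 and Nr1d1) had all probes on the same side. The test was passed by 4 of 19 member probes, against 16% of all probes. The brightest Clock probe differed by 0.05 and the others by 0.61 (adjusted p = 0.0813), -1.61 (0.00645) and -1.99 (0.0361, limma over all probes). The probe at -1.61 was designed on a separate cDNA of the locus, and the one at -1.99 exceeded background clearly on 1 of 3 day 2 arrays and 3 of 3 day 1 arrays, so its size is uncertain. The brightest Tef probe differed by 0.03, a pair of others by 0.72 each (adjusted p = 0.207 and 0.161) and the fourth, again designed on a separate cDNA, by -2.99 (adjusted p = 0.00671). That pair of Tef probes was lowest in KO 1 and highest in KO 12, as the brightest probes of Per3 and Cry1 were. The member of the pair given here by its sequence (mm7 chr15:81905781-81907886, plus strand) had -2.17, -1.55 and -0.69 in KO 1, KO 11 and KO 12, against -0.90, -1.03 and -1.23 in WT 11, WT 12 and WT 13.
Tef probe: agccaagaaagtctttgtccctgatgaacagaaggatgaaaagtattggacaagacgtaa

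**Figure D4:**
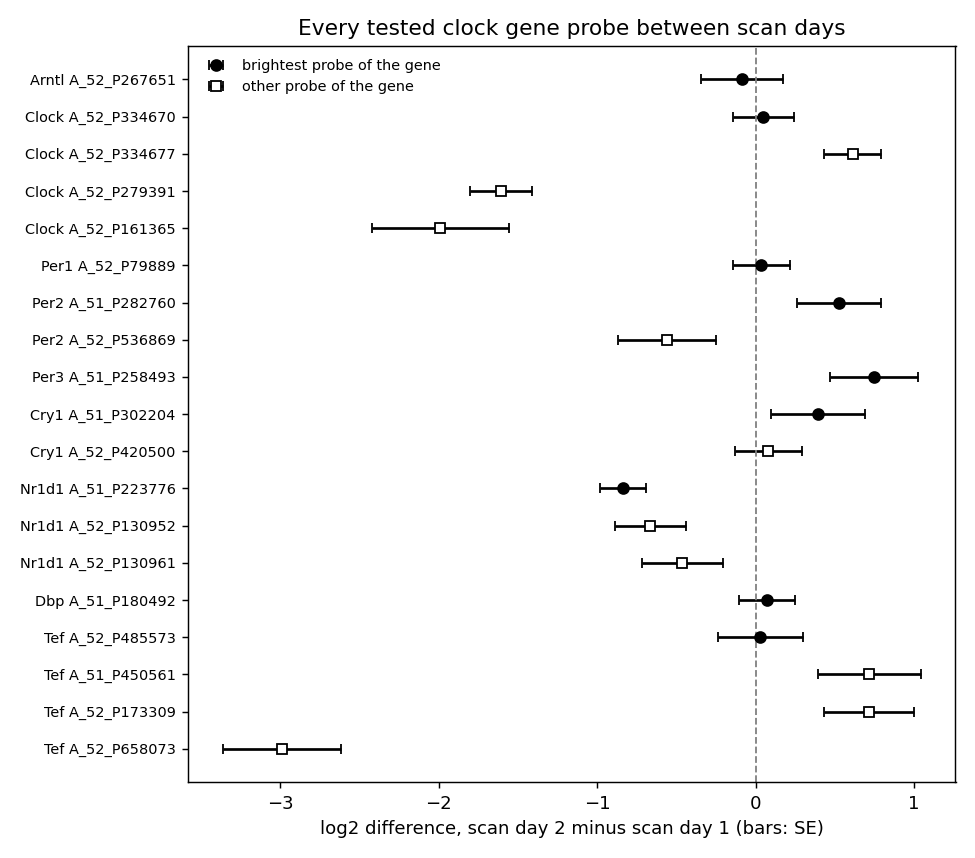
Log2 difference of every tested clock gene probe, scan day 2 minus scan day 1, with its SE, filled for the brightest probe of a gene and open for the others. The 3 Nr1d1 probes lie left of 0 together, whereas the Clock and Tef probes spread from 0.61 to -1.99 and from 0.72 to -2.99.

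KO 1 was the lowest of the 6 lungs for Per2, Per3 and Cry1 and the highest for Dbp. Its deviation from the mean of the 6 lungs was -0.80 in Per2, -0.69 in Per3, -0.71 in Cry1 and 0.30 in Dbp. This lung also held the skeletal muscle signal given above, with Acta1 at 6.26 and Myh4 at 7.22, against -2.92 to 0.25 and -3.41 to 2.12 in the other 5 lungs. All 4 muscle markers were highest in KO 1, and their part in these values was not tested. Without KO 1, the knockout difference became -0.01 for Per2, 0.16 for Per3 and 0.20 for Cry1, and that of Dbp became 0.07.

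**Figure D5:**
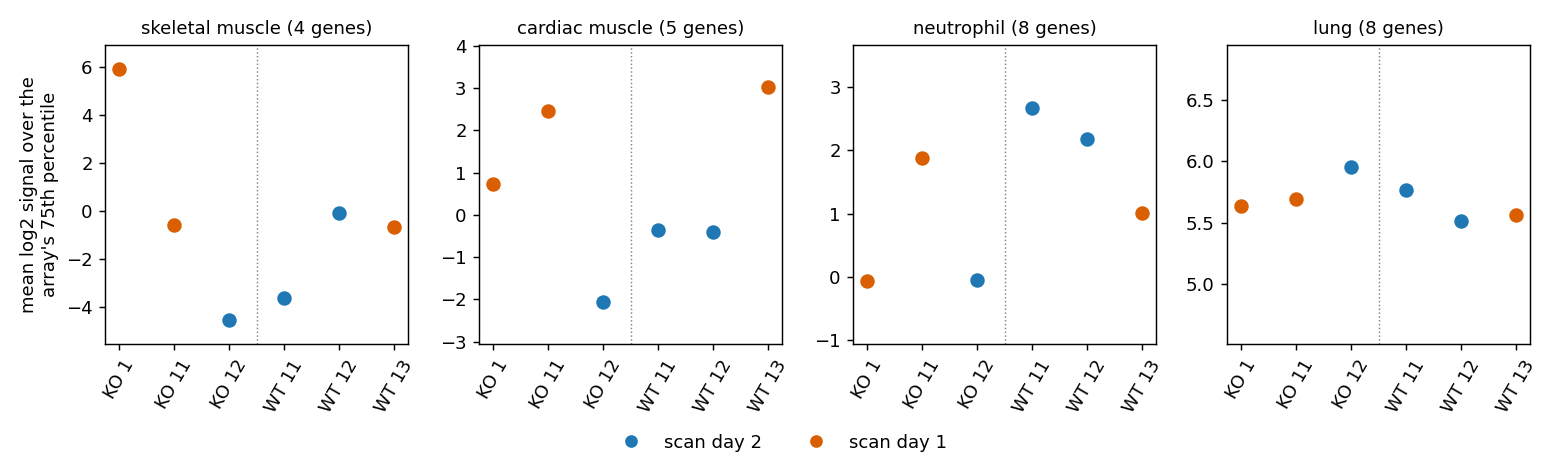
Mean log2 signal of the markers of 4 tissues or cell types in each lung, over the 75th percentile of the array, knockout lungs left of wild-type lungs (dotted line between them), points coloured by scan day. KO 1 is highest in skeletal muscle markers, the day 2 lungs are lowest in cardiac muscle markers, and the lung markers stay between 5.51 and 5.95.

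The genes whose pattern over the 6 lungs was most like that of Dbp were sought among 2239 genes with an SD of at least 0.5. The highest correlations were those of Fam25c (Pearson r 0.99, Spearman rho 1), Slc27a6 (0.95, 0.94), Aldoa (0.95, 0.94), Ucp3 (0.94, 1) and Shisa4 (0.94, 0.94). Aldoa is a glycolytic enzyme and Ucp3 a mitochondrial uncoupling protein, both abundant in skeletal muscle, and all 5 were highest in KO 1. Without KO 1 and WT 13, the 2 lungs farthest from the median of Dbp, r was 0.97 for Fam25c and 0.77, 0.68, 0.88 and 0.72 for the others. The lowest were Tnf (-0.95, -0.89), a cytokine, Ccl20 (-0.91, -0.83), a chemokine, Olfr1065 (-0.91, -0.60), Rgs9 (-0.89, -0.89) and Muc5b (-0.89, -0.71), an airway mucin. Without the same 2 lungs r was -0.96 for Tnf, -0.81 for Rgs9, -0.30 for Ccl20, -0.12 for Olfr1065 and 0.28 for Muc5b. Arntl, the clock gene of opposite phase, had an r of -0.30 with Dbp over the 6 lungs and -0.99 over the 4 without KO 1 and WT 13, and Clock had 0.15 and -0.96. Without KO 1 alone, r was -0.36 for Arntl and 0.10 for Clock, so the values near -1 needed WT 13 left out too. Over the same 4 lungs r was 0.90 for Per2, 0.84 for Cry1, 0.78 for Per3, 0.74 for Tef, 0.64 for Per1 and -0.61 for Nr1d1. Cry1 and Nr1d1 thus ran against their sides of the index. The 4 lungs that remain span only a part of the 1.42-fold range of Dbp. With 6 lungs in 2 day clusters these values describe the lungs and are no relation.

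Of 17 other clock genes, 14 were measured and 0 passed between knockout and wild type. They split into 7 higher and 7 lower, with a median difference of 0.00, against 0.01 for all genes. The 4 of widest range were Csnk1e, Nfil3, Btrc and Hlf, a kinase of the PER proteins, a D-box repressor, a ubiquitin ligase subunit for PER and a D-box activator. Csnk1e had 3.68, 3.59 and 1.33 in KO 1, KO 11 and KO 12, against 1.29, 1.53 and 3.44 in WT 11, WT 12 and WT 13. As in Nr1d1, its levels followed the day, with a difference of -2.17 (adjusted p = 0.00354, limma), and it was the only one of the 14 to pass between days. Of all genes, 11% passed between days, so a call of this kind was not particular to clock genes. Nfil3 differed between the groups by -0.63 (SE 0.52), Btrc by 0.16 (SE 0.40) and Hlf by -0.15 (SE 0.31), all within their spread.

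Clock output genes and genes of 2 other inputs to Per1 were set beside the members. Of 8 clock output genes, 0 passed, 5 were higher and 3 lower in the knockout, the median difference was 0.08, and 5 were lowest in KO 1. Their widest ranges were those of Cdkn1a, Wee1, Nampt and Lonrf3. Cdkn1a, a cell cycle inhibitor, had 0.37, 2.05 and 0.92 in KO 1, KO 11 and KO 12, against 0.86, 0.84 and 0.88 in WT 11, WT 12 and WT 13, so that KO 11 stood above the rest. Wee1, a cell cycle kinase, differed by -0.28 (SE 0.35), Nampt, which makes NAD, by -0.16 (SE 0.33) and Lonrf3 by -0.05 (SE 0.30).

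Of 11 glucocorticoid targets, Per1 among them, 10 were measured, 0 passed, 6 were higher and 4 lower in the knockout, and the median difference was 0.08. The widest ranges were those of Fkbp5, Klf9, Mt2 and Dusp1. Fkbp5, a chaperone of the glucocorticoid receptor, had -0.52, 1.495 and 1.94 in KO 1, KO 11 and KO 12, against 1.83, 1.31 and 0.84 in WT 11, WT 12 and WT 13. KO 1 was the lowest lung, as in Per2, while Per1 there was 3.35, within the range of the other lungs. Klf9, a transcription factor, was lower on day 2 by a difference of -1.11 (adjusted p = 0.0235, limma), as Nr1d1 was. It was the only one of the 10 to pass between days, against 11% of all genes. Mt2 differed between the groups by 0.22 (SE 0.35) and Dusp1 by -0.43 (SE 0.20).

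Of 11 immediate early genes, genes induced quickly by outside signals as Per1 is in some cells, 2 were higher and 9 lower in the knockout, with a median difference of -0.36, and 0 passed. Egr1 alone reached an unadjusted p under 0.05 (limma over all genes, unadjusted p = 0.0436, adjusted p = 0.9999), at a difference of -0.81 (SE 0.32). Over all genes the median difference was 0.01, and 0.948% reached that unadjusted threshold. With scan day as a block Egr1 had an unadjusted p of 0.0785 and Fos one of 0.0276, at a Fos difference of -0.90 (limma over all genes). Fos had -1.95, -1.30 and -0.74 in KO 1, KO 11 and KO 12, against 0.73, 0.48 and -1.17 in WT 11, WT 12 and WT 13, a difference of -1.35 (SE 0.58). WT 11 and WT 12 were high and WT 13 overlapped the knockout lungs. Nr4a1 differed by 0.01 (SE 0.54) and Junb by -0.36 (SE 0.44). The direction was not the same on both scan days. Fos, Egr1, Nr4a1 and Junb differed by -1.35, -1.42, -1.29 and -1.32 within day 2, which had a single knockout lung. Within day 1, which had a single wild-type lung, they differed by -0.45, -0.09, 0.92 and 0.50. Per1, at 0.08, did not share the direction of the list's median.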

How the data were processed

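Total lung RNA was amplified and labelled with Cy3, per the labels' protocols. The deposited files of the scanner give the intensity of every spot of Agilent 1-colour arrays. Per the file headers, Feature Extraction 9.5.1.1 read them (9.1 per the submitters' processing notes); background was subtracted and the signal detrended within the array, and genome build mm7 is given. The authors' deposited value table holds log2 intensities with column medians of 8.09 each; their scaling is not stated.

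Spots of a probe were averaged after flagged spots were left out, and 30 probes were dropped. Each processed signal was divided by its array's 75th percentile and put on a log2 scale. Probes had to be well above background on at least 3 of 6 arrays, whatever the group, and the brightest stood for its gene. RefSeq (GRCm38.p6) named 32737 probes, and 8437 kept the array's name. Knockout and wild-type lungs were compared in R 4.3.3 by limma 3.58.1, two-sided and without covariates (lmFit, then eBayes), with Benjamini-Hochberg adjustment over 20244 genes. Tested on simulated data of this comparison over 20244 genes, with 50 genes changed at each size, the share found was 16% at a log2 change of 1, 60% at 2, 78% at 4 and 98% at 8, with 4 false calls. The simulated noise was independent for each gene and lung, without effects shared by a scan day or slide. In the real arrays the correlation within a slide was 0.63, so these shares may not hold there. The small number of arrays limits the precision.

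The members, lists and named genes (the 4 of widest range in each list, and the 5 highest and 5 lowest correlations with Dbp) were chosen with earlier results of these data known. Alternatives covered scaling, background correction, the authors' values, probe filters, the probe rule, scan day, slide, replicate number, variance models and each lung left out. The design text calls the lungs individual biological replicates, and the numbers were not taken to pair lungs. Both shared numbers (11 and 12) gave correlations of deviations from the group means of -0.25 and 0.42. KO 12 and WT 12 shared a scan day and a slide, whereas KO 11 and WT 11 shared neither. These correlations therefore cannot tell whether the numbers pair lungs.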

Additional observations from a re-analysis of the deposited data

How the results depend on the processing

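No clock gene passed the adjusted threshold between knockout and wild type in any of 180 alternatives, each being a gene under a setting. In 29 of these the sign of the difference turned, and the largest turned difference was 0.62 in size. The turned differences were as follows, and the cause was not tested. Within scan day 2 alone Arntl gave -0.31, Clock -0.20, Per2 0.0837, Per3 0.62, Cry1 0.26, Nr1d1 -0.0154 and Tef 0.45, and within scan day 1 alone Per1 gave -0.0585. With scan day as a block Per3 gave 0.10 and Cry1 0.0104. With slide as a random block Arntl gave -0.0522 and Per3 0.0262. With the replicate block Clock gave -0.0374, Per3 0.0879, Cry1 0.16 and Tef 0.15. With array weights Arntl gave -0.0844 and Clock -0.0296, and with the mean of all probes Tef gave 0.0422. Leaving out each lung in turn gave -0.13 to 0.21 for Arntl, -0.0371 to 0.17 for Clock, -0.0224 to 0.17 for Per1, -0.57 to 0.16 for Per3, -0.34 to 0.20 for Cry1, -0.30 to 0.0646 for Tef, -0.58 to -0.01 for Per2, 0.10 to 0.60 for Nr1d1 and 0.07 to 0.27 for Dbp.

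Of all genes, 0 passed in the comparison as reported (192 at an unadjusted p under 0.05), 2 with median scaling, 1 with normexp, 1 with the authors' values, 2 with slide as a random block, 1 with trend and robust variance, 2 with array weights and 0 to 1 with a lung left out. At an unadjusted p under 0.05 there were 425 with the block for scan day, 449 within day 1, 3868 within day 2, 724 with slide as a block, 626 with the replicate block (where 0 passed the adjustment), 4205 with array weights and 92 to 1474 with a lung left out. Between scan days 2218 genes passed, 3668 with median scaling, 3354 without genotype in the model and 622 to 2462 with a lung left out. Per2 between days was -0.0160 with the mean of all probes, and 0.29 to 0.76 with a lung left out, as against 0.23 to 1.26 for Per3. Nr1d1 between days was -0.65 with the mean of all probes (adjusted p = 0.0621) and -0.54 with median scaling. The index difference lay between -0.16 and 0.12 under the alternatives run.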
